A study of Mus musculus with 6 samples.

Results

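The genes of Nodal signalling were followed through RNA-seq libraries of mouse embryonic stem (mES) cells of the line E14, from strain 129/Ola. The 9 genes were *Lefty1*, *Lefty2*, *Nodal*, *Tdgf1*, *Gdf3*, *Smad7*, *Smad3*, *Acvr1b* and *Acvr2b*, and all 9 were among the 16668 gene symbols listed in each library. *Lefty1* was chosen by its strong variation among these libraries, so its values are given as a description without a test, and the others were chosen for their place in the same pathway. All cells were grown without feeders in 2i medium (the MEK inhibitor PD0325901 and the GSK3 inhibitor CHIR99021) with LIF, and received siRNA by lipid transfection. The 6 libraries were labelled as 3 groups of 2: control (control siRNA on wild-type cells), Ring1B-KD (siRNA against *Rnf2*, the gene of the H2A ubiquitin ligase Ring1B) and Dzip3-KD (siRNA against *Dzip3*, which also encodes a ligase for H2A). The study describes the pairs as biological duplicates, and the cells are a single line that was sampled once after transfection.

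Nodal is a secreted ligand of the TGF-beta family. With the co-receptor Cripto it binds activin receptors, which phosphorylate Smad2 and Smad3, and these enter the nucleus with Smad4 and act on target genes together with DNA-binding partners such as Foxh1. *Lefty1*, *Lefty2* and *Nodal* are themselves classical targets, and the Lefty proteins are secreted antagonists that block Nodal at its receptors, which makes the pathway a negative feedback loop. In the early mouse embryo the pathway is known for mesendoderm formation and for the left-right axis, and its ligands, co-receptor and antagonists are transcribed in mES cells.

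The file of each library carried a number and a condition word, and the word differed from the label in 4 of the 6 libraries. File 1 (word control) and file 2 (word Ring1BKD) belonged to the control pair, in that order, and file 3 (word Dzip3KD) to Ring1B-KD 1. File 4 (word control) belonged to Ring1B-KD 2, and file 5 (word Ring1BKD) and file 6 (word Dzip3KD) to the Dzip3-KD pair, in that order. These 3 and 3 libraries are called the first set and the last set below. What the file number stands for is not given in the sources used here. Over all genes tested, Pearson correlations of log2(RPKM + 1) were at least 0.960 within the first set and 0.963 within the last set, and at most 0.957 between them. The control pair lay in the first set and the Dzip3-KD pair in the last, so label and set cannot be told apart in that comparison. *Rnf2*, the gene targeted in the Ring1B knockdown, had 30.6 and 20.4 RPKM under the label control, 26.8 and 28.8 under Ring1B-KD, and 19.4 and 28.2 under Dzip3-KD. It was lowest in the Ring1BKD-word library of each set, and was not lower under the label Ring1B-KD. *Dzip3* was at 2.24 and 2.68 RPKM under the label control, 1.18 and 1.89 under Ring1B-KD, and 1.70 and 1.31 under Dzip3-KD, and was lowest in the Dzip3KD-word library of each set. In the fit by word, *Rnf2* differed by -0.55 (log2, SE 0.13, limma unadjusted p = 0.00302, limma adjusted p = 0.232) for Ring1BKD. *Dzip3* differed by -0.45 (SE 0.21, limma unadjusted p = 0.0698, limma adjusted p = 0.754) for Dzip3KD, so neither passed the test over all genes. Exact 95% Poisson intervals on the *Rnf2* reads cover counting error only. They were 17.8 to 23.4 and 16.8 to 22.4 RPKM in the Ring1BKD-word libraries, below 27.1 to 34.4 and 25.5 to 32.3 in the control-word libraries. For *Dzip3* the intervals of the Dzip3KD-word and control-word libraries overlapped in each set. The values below are therefore given for each library with its label, and then by file set, by word and by label.

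Levels are RPKM, reads per length of exon and per total of mapped reads, which can be compared between genes because they are per length. The depth recovered from the values was 3015348 to 3583611 mapped reads per library, and 3 reads on a transcript of 2 kb stood for 0.419 to 0.497 RPKM. Averaged over the 6 libraries, the highest of the 9 genes was the co-receptor *Tdgf1* with 166 RPKM. *Gdf3* with 35.2 RPKM and *Nodal* with 31.8 RPKM followed, and these neighbours were not separated, since their ranges over libraries overlapped. *Lefty2* had a mean of 14.8 RPKM, *Smad7* 10.2, *Acvr1b* 8.54, *Smad3* 3.54, *Lefty1* 2.77 and *Acvr2b* 1.19. The ranges of *Lefty2*, *Smad7* and *Acvr1b* overlapped, and that of *Lefty1* overlapped those of both *Smad3* and *Acvr2b*. In RNA from whole cultures, fewer cells expressing a gene and less RNA per cell cannot be told apart.

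The promoters of *Nodal* and *Tdgf1* are shown because these ligand and co-receptor genes passed the test between the file sets described below. They are the 250 bases before the start of the gene in RefSeq (build GRCm38.p6, another build than the mm9 of the files), 5′ to 3′ on the strand of the gene, chr10:61417722-61417971 on the plus strand and chr9:110946159-110946408 on the minus strand. Capitals mark matches to the Smad box CAGAC, searched on both strands together with the Foxh1 motif AATNCACA. No matches to the motifs overlap in these windows.
Nodal: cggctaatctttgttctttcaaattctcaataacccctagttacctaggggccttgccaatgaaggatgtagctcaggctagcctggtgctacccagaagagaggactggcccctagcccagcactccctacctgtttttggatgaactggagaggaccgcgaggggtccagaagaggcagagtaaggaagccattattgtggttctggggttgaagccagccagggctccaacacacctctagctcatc
Tdgf1: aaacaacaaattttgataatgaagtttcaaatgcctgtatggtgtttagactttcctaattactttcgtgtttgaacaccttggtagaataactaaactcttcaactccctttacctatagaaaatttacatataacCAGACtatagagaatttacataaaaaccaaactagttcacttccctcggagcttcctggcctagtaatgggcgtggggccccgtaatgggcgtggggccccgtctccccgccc
The *Tdgf1* window held 1 Smad box and the *Nodal* window none, and neither held the Foxh1 motif. The Smad box was found in 42.2% and the Foxh1 motif in 3.18% of the 32851 promoter windows of this length, so a single Smad box is common. Promoter windows were found by symbol for 5 of the 9 genes, *Acvr1b*, *Acvr2b*, *Nodal*, *Smad3* and *Tdgf1*, and not for *Lefty1*, *Lefty2*, *Gdf3* and *Smad7*. Among the other 3, *Acvr2b* held 1 Smad box and *Acvr1b* and *Smad3* held none, with no Foxh1 motif in any.

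*Lefty1* and *Lefty2* encode paralogous Nodal antagonists and lie side by side in mm9, *Lefty2* at chr1:182823239-182829234 and *Lefty1* at chr1:182865153-182868531, both on the plus strand and 35918 bp apart. Each has a coding sequence of 1107 bp, of which 1017 aligned positions (91.9%) are identical. Windows of 36 bases that occur unchanged in the other gene made up 23.0% of the longest annotated *Lefty1* transcript and 15.0% of that of *Lefty2*, and for windows of 75 bases 11.2% and 7.21%. Only reads assigned to a single gene were used by the authors, and the read length is not given in the sources used here, so the levels of both genes may be set in part by how shared reads were handled.

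*Lefty1* was at 0.620 RPKM (3 reads) in the library labelled control 1, 0.182 (1 read) in control 2, 1.85 (10 reads) in Ring1B-KD 1, 3.21 (17 reads) in Ring1B-KD 2, 3.82 (20 reads) in Dzip3-KD 1 and 6.96 (40 reads) in Dzip3-KD 2. Both control libraries were lowest and both Dzip3-KD libraries highest, with a ratio of 38.3 between the extremes that rests on a single read at the low end. Exact 95% Poisson intervals on the reads, which cover counting error only, were 0.128 to 1.81 RPKM for control 1, 0.0046 to 1.01 for control 2, and 0.886 to 3.40 for Ring1B-KD 1. They were 1.87 to 5.13 for Ring1B-KD 2, 2.33 to 5.89 for Dzip3-KD 1 and 4.97 to 9.48 for Dzip3-KD 2. Every library in this order overlapped with its neighbours, whereas the interval of Dzip3-KD 2 lay above those of all 3 libraries of the first set. The mean was 0.883 ± 0.864 RPKM (SD, n = 3) in the first set and 4.66 ± 2.01 (SD, n = 3) in the last, with no overlap. *Lefty1* read numbers thus allow only a coarse order of libraries.

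*Lefty2* was at 6.47 RPKM in the library labelled control 1, 4.26 in control 2, 4.46 in Ring1B-KD 1, 26.8 in Ring1B-KD 2, 20.03 in Dzip3-KD 1 and 26.6 in Dzip3-KD 2, from 36 to 235 reads. The 3 libraries of the first set were low and the 3 of the last set high, and the Ring1B-KD pair was split, with its second library 6.01-fold above its first. The mean was 5.06 ± 1.22 RPKM (SD, n = 3) in the first set and 24.5 ± 3.87 (SD, n = 3) in the last, a ratio of 4.84. *Lefty2* was higher in the last set by 2.08 on the log2(RPKM + 1) scale (SE 0.18, limma adjusted p = 0.000831), and its adjusted p was between 2.4e-06 and 0.0194 under every alternative fitted. On this scale the change of low genes is understated. The genes and the sets were chosen with earlier results of these data known, so the adjusted p of *Lefty2* is not independent support.

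The ligands come next. *Nodal* (chr10:60880720-60888086) was at 30.4 RPKM in the library labelled control 1, 22.4 in control 2, 22.4 in Ring1B-KD 1, 43.1 in Ring1B-KD 2, 36.3 in Dzip3-KD 1 and 36.4 in Dzip3-KD 2, from 158 to 298 reads. Again all 3 libraries of the last set were above all 3 of the first, with means of 38.6 ± 3.89 and 25.1 ± 4.63 RPKM (SD, n = 3 each). *Nodal* was higher in the last set by 0.61 (log2, SE 0.15, limma adjusted p = 0.0436). This call was lost when any library but control 1 was left out, with adjusted p of 0.113 without control 2, 0.102 without Ring1B-KD 1, 0.146 without Ring1B-KD 2, 0.0738 without Dzip3-KD 1 and 0.109 without Dzip3-KD 2, and it was lost without the filter on low values (0.0910). *Gdf3* (chr6:122555421-122560105), a ligand related to Vg1 that acts with Nodal, was at 34.3, 30.3 and 30.2 RPKM in the first set and at 43.2, 32.5 and 40.5 in the last, in file order. The sets overlapped, and the log2 difference of 0.28 (SE 0.13, limma adjusted p = 0.250) did not pass the test.

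*Tdgf1* (chr9:110842114-110848662) encodes Cripto, the membrane-anchored co-receptor that Nodal needs. It was at 146 RPKM in the library labelled control 1, 124 in control 2, 127 in Ring1B-KD 1, 202 in Ring1B-KD 2, 177 in Dzip3-KD 1 and 220 in Dzip3-KD 2. With 821 to 1519 reads it was the best counted of the 9 genes, and the sets did not overlap (133 ± 12.1 and 199 ± 21.8 RPKM, SD, n = 3 each). *Tdgf1* was higher in the last set by 0.58 (log2, SE 0.13, limma adjusted p = 0.0323). The call was lost when any library but Dzip3-KD 1 was left out, with adjusted p of 0.0612 without control 1, 0.0947 without control 2, 0.0687 without Ring1B-KD 1, 0.110 without Ring1B-KD 2 and 0.127 without Dzip3-KD 2, and without the filter it was 0.0839.

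The receptors showed no such separation. *Acvr1b* (chr15:101004556-101043032), the type I receptor ALK4, was at 9.21, 7.74 and 7.05 RPKM in the first set and 9.23, 8.31 and 9.71 in the last, in file order, and the sets overlapped. Its log2 difference of 0.17 (SE 0.14, limma adjusted p = 0.515) did not pass the test. *Acvr2b* (chr9:119311562-119342619), a type II receptor, was at 0.975, 0.514 and 1.57 RPKM in the first set and 0.534, 1.26 and 2.30 in the last, from 3 to 14 reads. The overlap was wide and the log2 difference was 0.19 (SE 0.29, limma adjusted p = 0.745), and at this depth a moderate difference in *Acvr2b* was not detectable.

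Among the intracellular members, *Smad3* (chr9:63494574-63605801), which carries the signal to the nucleus, was at 2.54, 3.04 and 3.32 RPKM in the first set and 3.74, 3.37 and 5.21 in the last, from 39 to 95 reads. The sets did not overlap, but the nearest libraries, Ring1B-KD 1 and Dzip3-KD 1, were at 3.32 and 3.37 RPKM and had overlapping counting intervals, and the log2 difference of 0.35 (SE 0.18, limma adjusted p = 0.263) did not pass the test. *Smad7* (chr18:75527183-75555589), the inhibitory Smad that blocks the activated receptors, was the only one of the 9 with all libraries of the last set below the first. It was at 12.8, 10.8 and 10.9 RPKM in the first set and at 9.67, 8.34 and 8.55 in the last, from 121 to 172 reads. Its log2 difference was -0.34 (SE 0.13, limma adjusted p = 0.153), which did not pass the test.

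**Figure D1:**
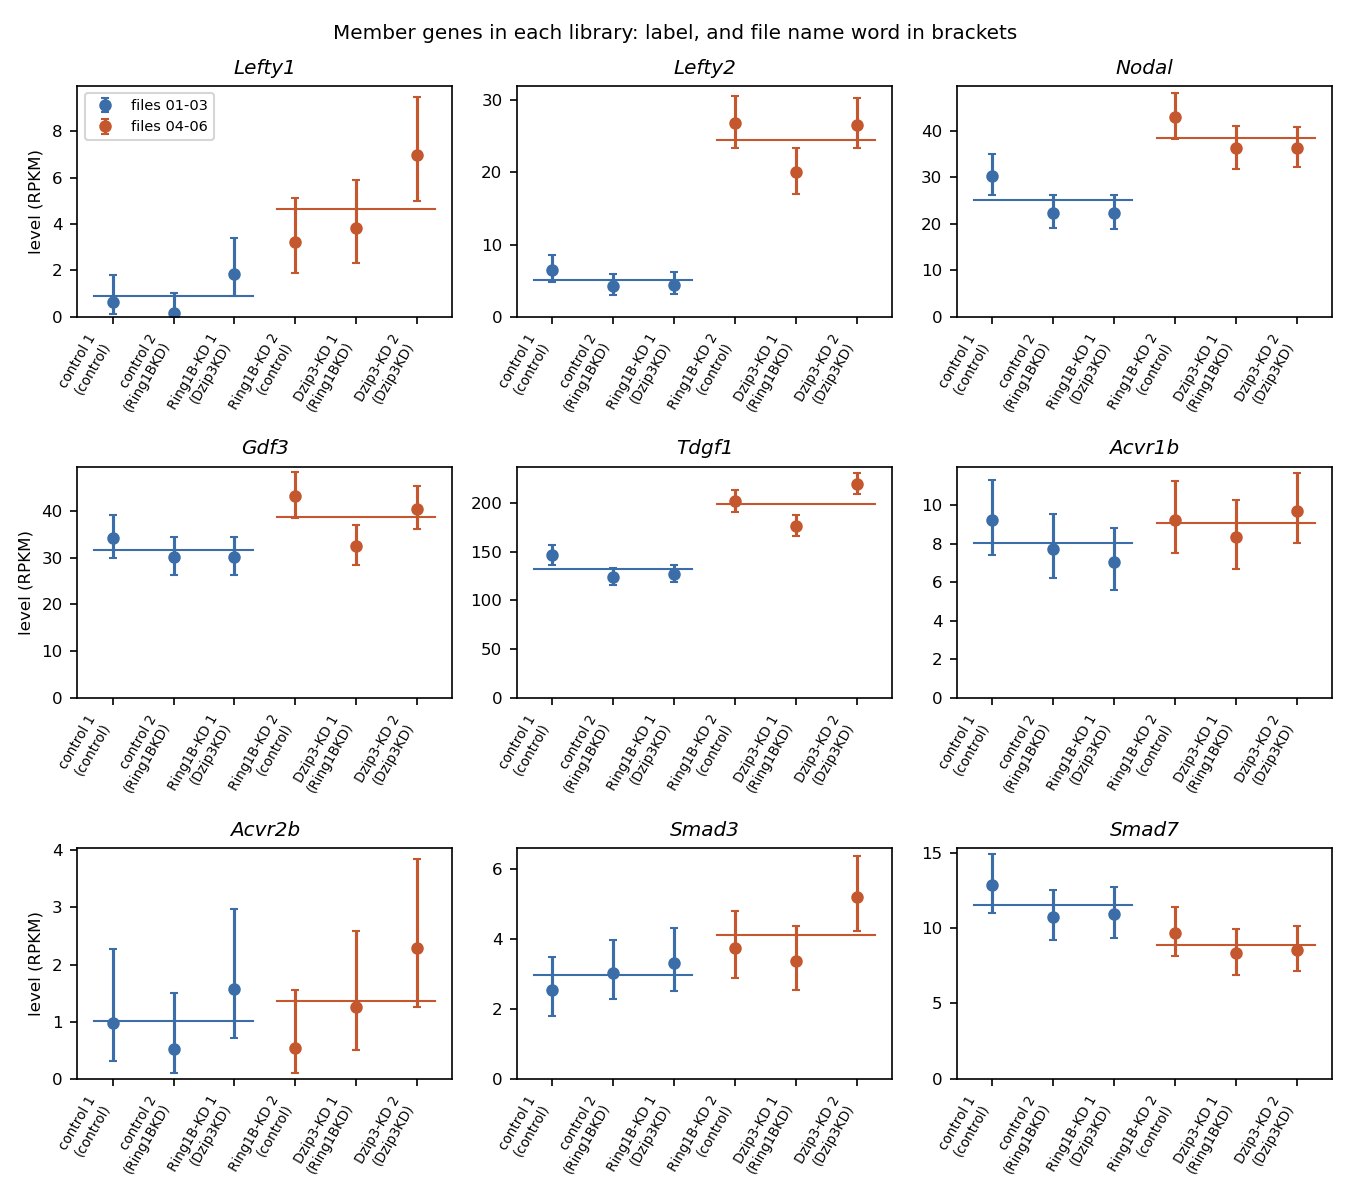
Level (RPKM, linear axes from 0) of each of the 9 genes in the 6 libraries in file order, with the label and the file name word under each point. Bars are exact 95% Poisson intervals on the recovered reads, horizontal lines the mean of each file set. The 3 libraries of files 4 to 6 lie above those of files 1 to 3 for *Lefty1*, *Lefty2*, *Nodal*, *Tdgf1* and *Smad3* and below them for *Smad7*.

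Between the sets, 3 of the 8 genes other than *Lefty1* passed the test, *Lefty2*, *Nodal* and *Tdgf1*, and all 3 were higher in the last set. Of all 11538 genes tested, 638 (5.53%) passed, 356 of them higher in the last set (3.09%) and 282 lower, and leaving out any 1 library reduced the 638 to between 67 and 359. All 3 libraries of the last set were above all 3 of the first for 4 of the 8, *Lefty2*, *Nodal*, *Tdgf1* and *Smad3*, against 13.1% of all genes tested. They were below for 1 of the 8, *Smad7*, against 15.5% of all genes. The genes and the split into sets were chosen with these values known. The counts and the adjusted p of single genes between the sets therefore describe the libraries and are not independent support.

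Each word occurred once in each set, so the last set could be set against the first within each word, with exact 95% intervals from the reads per mapped read that cover counting error only. *Lefty2* was 4.14-fold higher (3.02 to 5.79) between the control-word libraries, 4.70-fold (3.26 to 6.94) between the Ring1BKD-word libraries and 5.98-fold (4.21 to 8.70) between the Dzip3KD-word libraries. These 3 intervals overlap one another and all lie far above 1. For *Lefty1* the ratios were 5.17 (1.495 to 27.5), 21.0 (3.36 to 870) and 3.77 (1.85 to 8.45), and the widest rests on a single read in the first set. Over all reads of each set, *Lefty1* had 14 against 77 and a ratio of 5.32 (2.99 to 10.2), and *Lefty2* 121 against 614 and a ratio of 4.91 (4.03 to 6.01). The intervals of the paralogs overlapped, that of *Lefty1* being wider because it had far fewer reads.

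*Nodal* gave 1.42 (1.18 to 1.71), 1.62 (1.32 to 1.98) and 1.63 (1.33 to 1.99) for the words control, Ring1BKD and Dzip3KD. *Tdgf1* gave 1.38 (1.26 to 1.504), 1.42 (1.30 to 1.56) and 1.73 (1.59 to 1.88), and the Dzip3KD-word interval lay above those of the other words. *Smad7* gave 0.753, 0.775 and 0.781, with upper limits of 0.946, 0.986 and 0.986. All 3 *Smad7* ratios were thus below 1 by slightly more than counting error. *Gdf3* gave 1.26 (1.05 to 1.51), 1.07 (0.887 to 1.30) and 1.34 (1.12 to 1.60), and *Smad3* gave 1.47 (0.973 to 2.26), 1.11 (0.748 to 1.65) and 1.57 (1.12 to 2.22). For *Acvr1b* the intervals held 1 for the words control and Ring1BKD and began at 1.02 for Dzip3KD, and for *Acvr2b* all 3 intervals held 1. With 1 library on each side, these intervals compare libraries and carry no replicate error.

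**Figure D2:**
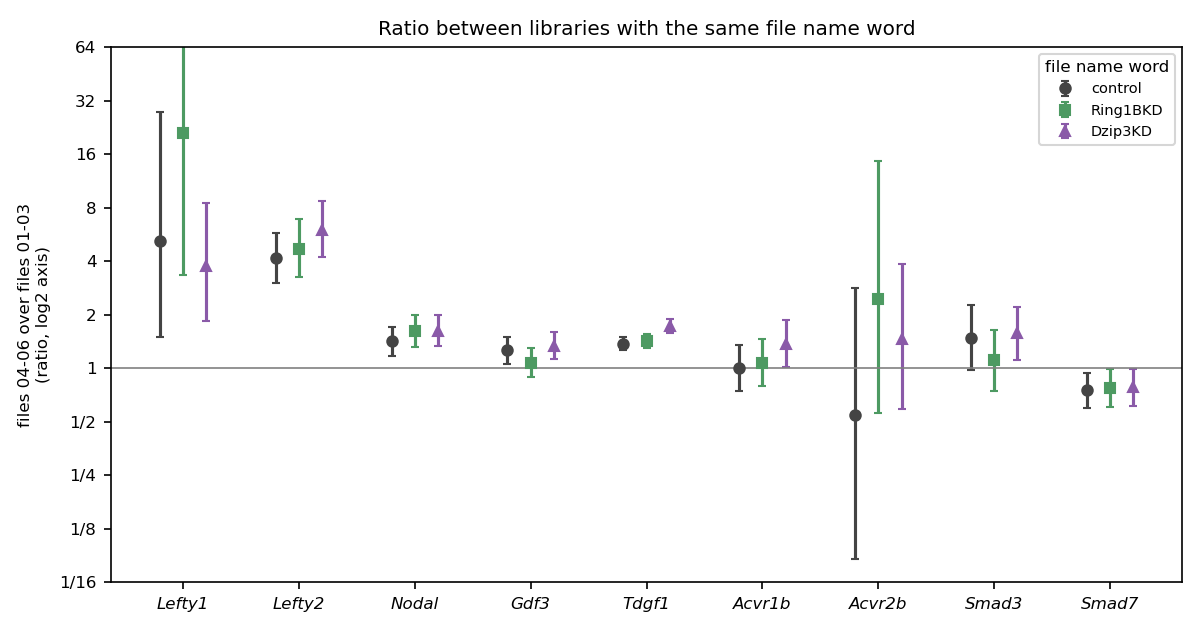
Ratio of the library of files 4 to 6 to the library of files 1 to 3 with the same file name word, per mapped read, for each of the 9 genes (log2 axis). Bars are exact 95% counting intervals, and that of *Lefty1* for Ring1BKD reaches 870, beyond the axis. All 6 *Lefty* ratios lie above 3, the *Nodal* and *Tdgf1* ratios between 1.38 and 1.73, and the *Smad7* ratios below 1.

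Within a set, the word comparison asks how the Ring1BKD-word and Dzip3KD-word libraries differed from the control-word library, with 1 library per word in each set. None of the 8 genes other than *Lefty1* passed the limma test of the word with the set as a block, neither for Ring1BKD (2 at an unadjusted p under 0.05, *Lefty2* and *Nodal*, beside 959 of all genes) nor for Dzip3KD (2, *Nodal* and *Acvr2b*), and voom on the recovered reads called none either. Of all genes tested, 48 (0.416%) passed for Ring1BKD, all of them higher, and 0.0% passed for Dzip3KD, where 752 genes were at an unadjusted p under 0.05 and voom called 4. The Ring1BKD-word libraries had *Lefty2* at 0.659 of the control-word level in the first set and 0.747 in the last (log2 -0.45, SE 0.16, limma adjusted p = 0.497). *Nodal* was at 0.737 and 0.842 (log2 -0.33, SE 0.13, limma adjusted p = 0.553), *Tdgf1* at 0.848 and 0.876, *Gdf3* at 0.883 and 0.753, *Smad7* at 0.838 and 0.862 and *Acvr1b* at 0.840 and 0.900. These 6 genes were below the control-word library in both sets, by differences that did not pass the test. *Lefty1* (0.293 and 1.19), *Smad3* (1.19 and 0.899) and *Acvr2b* (0.527 and 2.36) lay on opposite sides of the control-word library in the 2 sets.

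In the Dzip3KD-word libraries *Lefty1* was above the control-word level in both sets, at 2.98 times in the first (10 against 3 reads) and 2.17 times in the last (40 against 17 reads). *Smad3* was at 1.31 and 1.39 times the control-word level (log2 0.34, SE 0.19, limma adjusted p = 0.774) and *Acvr2b* at 1.61 and 4.30 times (log2 0.74, SE 0.27, limma adjusted p = 0.754), the latter from 3 to 14 reads. *Lefty2* was at 0.689 and 0.994, *Nodal* at 0.735 and 0.845, *Gdf3* at 0.881 and 0.938 and *Smad7* at 0.852 and 0.883. *Tdgf1* (0.869 and 1.09) and *Acvr1b* (0.766 and 1.05) lay on opposite sides. Under this word *Lefty1* thus stood above the control-word library and *Lefty2* at or below it, without a test of that difference. For each paralog the counting intervals of the Dzip3KD-word and control-word libraries overlapped in both sets. Such overlap is not a test of a difference, and no interval of the ratio was computed within a set. The Dzip3KD-word library was the highest of the 3 in both sets for 2 of the 8 genes, *Smad3* and *Acvr2b*, against 13.9% of all genes tested. The control-word library was the highest in both sets for 4 of the 8, *Lefty2*, *Nodal*, *Gdf3* and *Smad7*, against 17.3% of all genes. For *Lefty2* and *Nodal* the word differences within a set were smaller than the distance between the sets.

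**Figure D3:**
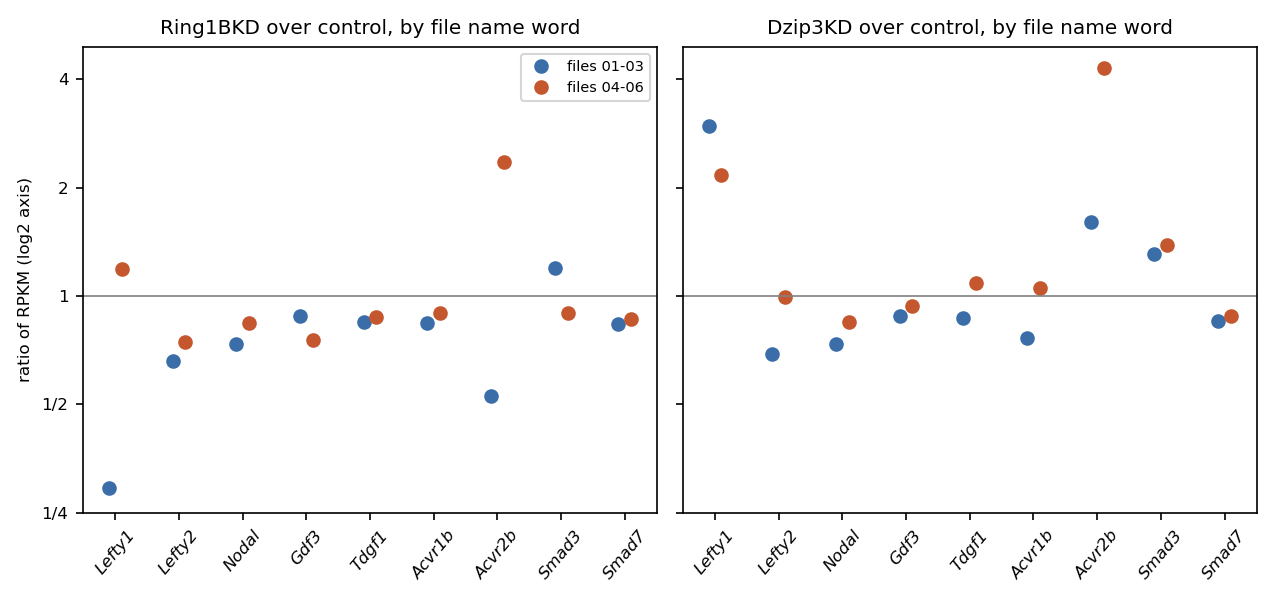
Ratio of RPKM to the control-word library of the same file set (log2 axis), for the Ring1BKD word on the left and the Dzip3KD word on the right, with 1 library behind each value and no error bars. *Nodal*, *Gdf3* and *Smad7* lie below 1 in all 4 ratios, while *Lefty1* lies above 1 in both sets only for Dzip3KD.

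By label, none of the 8 genes passed the limma test in any comparison. For Dzip3-KD against control 0.0% of all genes passed, with 2 of the 8 genes, *Lefty2* and *Smad7*, and 1411 of all genes at an unadjusted p under 0.05. *Lefty2* had a mean of 23.3 ± 4.68 RPKM under the label Dzip3-KD and 5.37 ± 1.56 under the label control (SD, n = 2 each), a log2 difference of 1.94 (SE 0.61, limma adjusted p = 0.319). Its adjusted p was 0.0449 without the library Ring1B-KD 1, 0.0450 without Ring1B-KD 2 and 0.0461 with only the 4 libraries compared, and with the file set as a block the difference was -0.41. In that block fit the difference between the sets came only from Ring1B-KD 2 against Ring1B-KD 1, so it does not separate label from set. *Lefty1* was at 5.39 ± 2.22 RPKM under Dzip3-KD and at 0.401 ± 0.310 under control (SD, n = 2 each). *Nodal* differed by 0.46 (SE 0.29, limma adjusted p = 0.522), *Tdgf1* by 0.54 (SE 0.24, limma adjusted p = 0.412) and *Smad7* by -0.43 (SE 0.18, limma adjusted p = 0.399). The Dzip3-KD pair lay above the control pair for 5 of the 8 genes, *Lefty2*, *Nodal*, *Tdgf1*, *Smad3* and *Acvr2b*, against 20.4% of all genes tested. The control pair lay in the first set and the Dzip3-KD pair in the last. A gene higher throughout the last set, as all of these but *Acvr2b* were, therefore had to be counted here. The members were also chosen with their values known, so this count is no separate result by label.

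For Ring1B-KD against control by label, 0.0% of all genes and none of the 8 passed, with 589 genes and none of the 8 at an unadjusted p under 0.05. The pair labelled Ring1B-KD was divided between the sets, so that *Lefty2* had a mean of 15.6 ± 15.8 RPKM (SD, n = 2) and a log2 difference from control of 0.97 (SE 0.61, limma adjusted p = 0.905). *Nodal* was at 22.4 and 43.1 RPKM and *Tdgf1* at 127 and 202 RPKM in this pair, each near the values of its own file set. *Lefty1*, by contrast, was 1.74-fold apart in this pair (10 and 17 reads) with overlapping counting intervals, and stood between the control and Dzip3-KD pairs. Between the labels Dzip3-KD and Ring1B-KD, 0.0% of all genes and none of the 8 passed, with 534 genes and none of the 8 at an unadjusted p under 0.05. Voom on the recovered reads called no gene in any comparison by label.

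The other genes of the pathway were taken from lists of ligands, receptors, antagonists, Smads with their partners, inhibitors and targets. Beside the 9 members these hold 52 genes, of which 46 were listed and 35 passed the filter on low values. Of these 35, 1 (2.86%) passed the test between the sets, *Otx2*, higher in the last set, against 3.09% of all genes that passed as higher and 5.53% that passed in either direction. Libraries of the last set were all above the first for 6 of the 35 (17.1%) and all below for 4 (11.4%), against 13.1% and 15.5% of all genes tested. Apart from the 9 members, the pathway genes thus passed or separated at shares near those of all genes, and the median log2 difference was -0.07, beside -0.04 over all genes tested. *Otx2*, an anterior epiblast transcription factor and Nodal target, was at 0.991, 0.871 and 1.33 RPKM in the first set and 9.72, 5.72 and 12.1 in the last (8 to 116 reads), a log2 difference of 2.25 (SE 0.24, limma adjusted p = 0.00228). Its sets did not overlap, and its 2 highest libraries, Dzip3-KD 2 and Ring1B-KD 2, were also the 2 highest for *Lefty2*.

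By role, with *Lefty1* left out because it was chosen for its variation, 1 of 6 ligands tested passed the test (*Nodal*), 1 of 8 receptors and co-receptors (*Tdgf1*), 1 of 6 extracellular antagonists and processing enzymes (*Lefty2*), and 3 of 11 target genes (*Lefty2*, *Nodal* and *Otx2*). All of these were higher in the last set, as were 3.09% of all genes tested, and apart from *Otx2* all are members chosen with their values known. None of the 8 Smads and nuclear partners and none of the 10 intracellular inhibitors passed. The median log2 difference was 0.16 for ligands, 0.17 for receptors, -0.0081 for extracellular antagonists and processing enzymes, -0.25 for Smads and partners, -0.09 for inhibitors and 0.40 for targets, beside -0.04 over all genes tested. The targets tested also held *Smad7* (log2 -0.34), *Eomes* (-0.26), *Tgif1* (-0.16) and *Pmepa1* (-0.11), which were lower in the last set without passing the test. The remaining targets tested were higher. Of the 17 listed targets 5 were below the filter, among them *T*, *Mixl1* and *Foxa2*. No pathway gene passed in any of the comparisons by word or by label.

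Of the pathway genes whose sets did not overlap, most did not pass the test, and their number was near the share of all genes given above, so the values below are a description. *Pcsk6*, a convertase that processes Nodal, was at 7.64 to 9.72 RPKM in the first set and 12.4 to 13.4 in the last (log2 0.51, SE 0.13, limma adjusted p = 0.0517). *Skil*, a Smad co-repressor and target, was at 3.98 to 4.13 and 4.77 to 8.49 RPKM (log2 0.55, limma adjusted p = 0.116), and the type I receptor gene *Tgfbr1* at 5.86 to 7.25 and 7.69 to 9.02 RPKM (log2 0.29, limma adjusted p = 0.236). *Inha*, an inhibin subunit, had 0 to 4 reads in a library and is too low to read. On the other side, *Foxh1*, the DNA-binding partner of Smad2 and Smad3, was at 26.5 to 32.8 RPKM in the first set and 19.4 to 24.8 in the last (log2 -0.34, limma adjusted p = 0.180). The coactivator gene *Ep300* (log2 -0.43, limma adjusted p = 0.0904) and *Trim33*, a Smad-binding chromatin factor (log2 -0.38, limma adjusted p = 0.117), also had every library of the last set below the first.

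**Figure D4:**
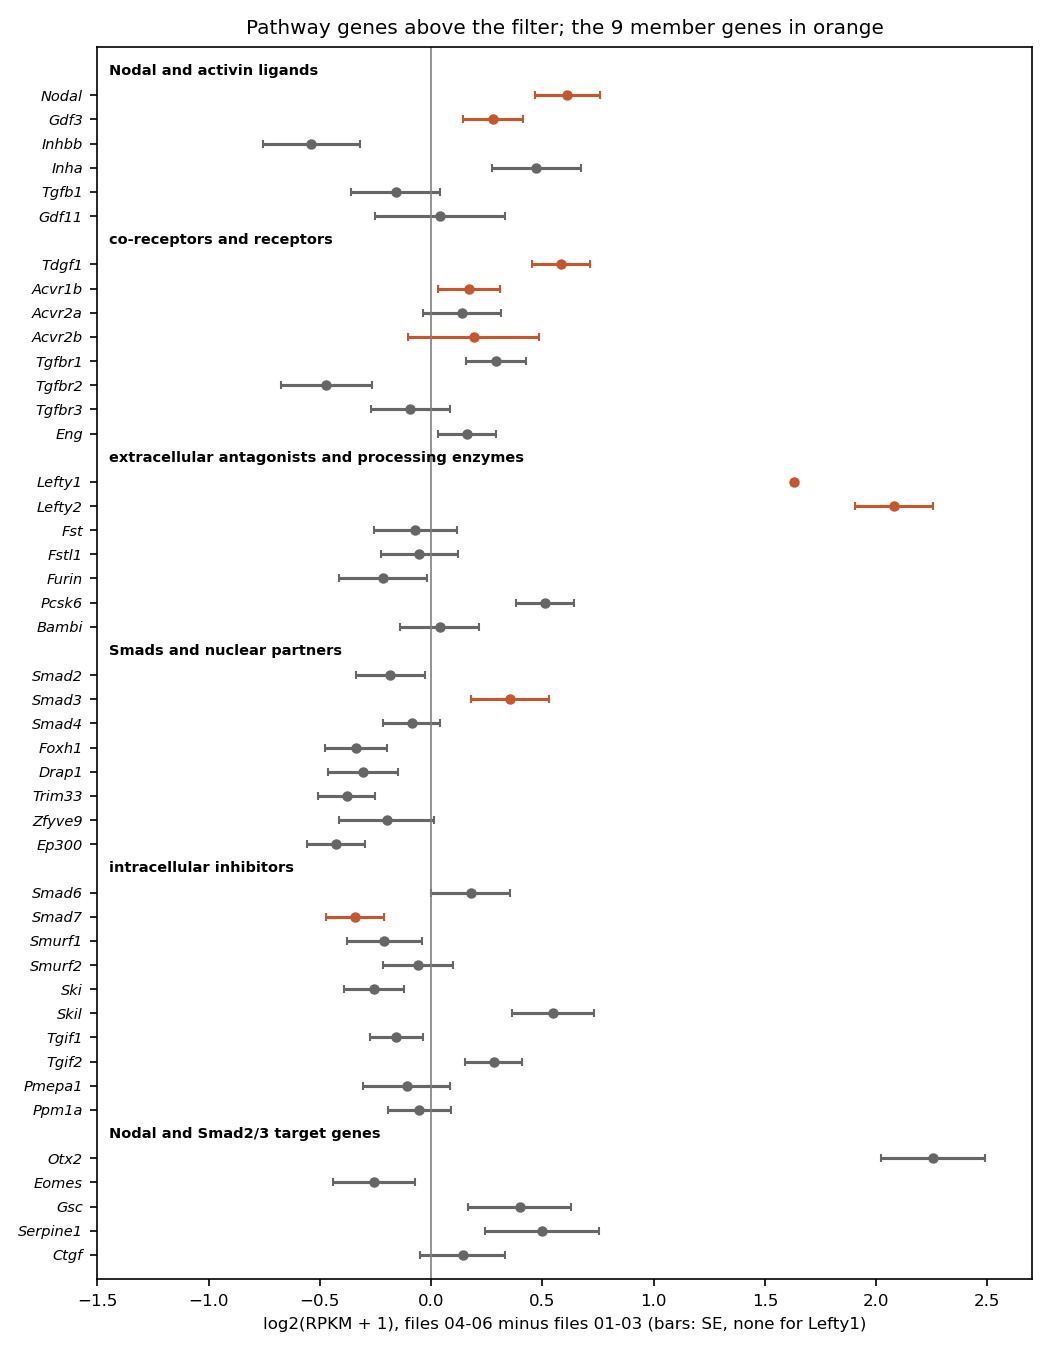
Difference in log2(RPKM + 1) between the means of files 4 to 6 and files 1 to 3 for every pathway gene above the filter on low values, by role, with the SE of the limma fit as bars and the 9 members in orange. Genes that belong to 2 lists are drawn once, and *Lefty1* is drawn without a bar because it was not tested. *Otx2*, *Lefty2* and *Lefty1* stand apart at 2.25, 2.08 and 1.63, and all other genes lie between about -0.54 and 0.61.

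Genes with a pattern like that of the antagonists were ranked by Pearson's r of log2(RPKM + 1) over the 6 libraries, among the 480 genes whose mean reached 2 RPKM and whose SD reached 0.5. With *Lefty1* the closest were *Podxl* (r = 0.991), *Ldhb* (0.987), *Ppp1r14a* (0.979), *Cgref1* (0.975) and *Serpine2* (0.973). *Podxl* was at 2.43, 1.64, 3.23, 5.62, 6.15 and 9.06 RPKM in file order, the same order of libraries as *Lefty1*. Among the closest to *Lefty2* were *Neat1* (0.994), *Tuba3a* (0.992), *Tmem109* (0.991) and *Fgf4* (0.989). *Fgf4*, a growth factor gene of pluripotent cells, was at 31.99 to 48.5 RPKM in the first set and 83.3 to 101 in the last. Of the members, *Tdgf1* (0.978) and *Nodal* (0.943) came closest to *Lefty2*, then *Lefty1* (0.859) and *Gdf3* (0.828), while *Smad7* ran the other way (-0.775). The points are 6 libraries in 2 sets, so the separation of the sets alone makes such values high, and they are given without a p.

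Markers were read in the same libraries. The naive ES cell markers (8 of 8 listed) summed to 1046 to 1371 RPKM in the first set and 1058 to 1286 in the last, with *Pou5f1* at 248 RPKM or more in every library. Within that list *Nanog* was above in every library of the last set, and *Klf4*, *Esrrb* and *Tfcp2l1* were below (limma adjusted p from 0.0726 to 0.169), none of which passed the test. Over all genes tested, 13.1% were above in every library of the last set and 15.5% were below, a background for each marker list here. The primed epiblast list summed to 12.5 to 16.5 and 12.8 to 20.3 RPKM, with *Otx2* higher and *Dnmt3b* lower in the last set (log2 -1.12, SE 0.17, limma adjusted p = 0.0119). Mesendoderm markers summed to 2.74 to 3.34 and 2.65 to 3.76 RPKM. Fibroblast markers (4 of 6 listed) summed to 1.18 to 3.10 and 2.16 to 2.30, and the two-cell-like list (3 of 5 listed) to 110 to 316 and 53.2 to 266. In 3 lists the sets did not overlap. Primitive endoderm markers summed to 1.75 to 2.88 RPKM in the first set and 1.09 to 1.25 in the last, where 5 of 6 markers, *Gata4*, *Gata6* and *Sox17* among them, had means under 0.5 RPKM. The remaining marker, *Dab2*, was at 0.788, 1.39 and 1.60 RPKM in the first set and 0.196, 0.529 and 0.482 in the last, in file order. Its log2 difference of -0.68 (SE 0.21, limma adjusted p = 0.0881) did not pass the test. Trophectoderm markers (5 of 6 listed) summed to 3.00 to 6.48 and 1.69 to 2.89 RPKM, with *Cdx2* and *Hand1* under 0.5 and *Krt8* lower in the last set (log2 -1.14, SE 0.27, limma adjusted p = 0.0413). Without *Krt8* the sums overlapped, at 1.54 to 2.45 and 1.36 to 2.21 RPKM, and *Krt18* and *Gata3* differed by 0.12 and 0.10 (log2, limma adjusted p = 0.797 and 0.833). Neural progenitor markers summed to 4.18 to 6.45 and 9.62 to 11.96, with *Pax6* and *Neurog1* under 0.5. In that list *Nes* (log2 0.88, SE 0.23, limma adjusted p = 0.0576) and *Sox1* (log2 0.34, SE 0.18, limma adjusted p = 0.273) were above in every library of the last set without passing the test. The part of other cell types, or of whatever the file number stands for, in the levels of *Lefty1*, *Lefty2*, *Nodal* and *Tdgf1* was not tested.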

How the data were processed

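The authors sequenced stranded mRNA libraries on a MiSeq, aligned reads to mm9 and deposited RPKM values from reads assigned to a single gene, with 1 list per library. The gene annotation is not given in the sources used here. RPKM does not correct for RNA composition. Whole reads were recovered for 15513 of 16668 genes (93.1%), including the 9 members, and summed to 963450 to 1141053 reads per library. Transcript lengths of GENCODE M1 set the total depth. The length of each gene was inferred from the steps of its RPKM values as a whole number of bases. It was 5090 bp for *Smad3*, as in its longest GENCODE M1 transcript, but 4441 bp for *Smad7*, whose longest transcript there has 4278 bp. Read numbers and counting intervals rest on these inferred lengths. Counting intervals are exact 95% Poisson or binomial intervals and cover counting error only. Groups came from the sample labels, and file number and word from the file names. limma 3.58.1 (R 4.3.3, variance trend) was fitted to log2(RPKM + 1) for the 11538 genes whose mean over libraries reached 0.5 RPKM, by label, by file set, and by word with the set as a block, with Benjamini-Hochberg adjustment and a threshold of 0.05. The code was tested on simulated data. Genes outside the 9 were named where called, where among the 8 pathway genes differing most between non-overlapping sets, or where among the 5 most like *Lefty1* or *Lefty2*, of which 1 is not reported here. The members, lists and sets were chosen with earlier results of these data known. Alternatives changed the pseudocount, filter, normalization, model and libraries.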

Additional observations from a re-analysis of the deposited data

Results flagged for a closer look

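Some members lay on opposite sides of the control-word library in the 2 file sets. For the Ring1BKD word, the ratio to the control word was 0.293 in the first set and 1.19 in the last for *Lefty1*, 1.19 and 0.899 for *Smad3*, and 0.527 and 2.36 for *Acvr2b*. For the Dzip3KD word it was 0.869 and 1.09 for *Tdgf1*, and 0.766 and 1.05 for *Acvr1b*. With 1 library per word in each set these differences were not tested, and the *Lefty1* and *Acvr2b* values rest on as few as 1 and 3 reads.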

How the results depend on the processing

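Over the alternatives, 494 of 549 member values were counted as unchanged. For the tested genes this meant the same direction and the same side of the threshold. For *Lefty1*, which was not tested, it meant the same direction and a shift smaller than the residual SD. Some alternatives, such as leaving out a library outside a comparison by label, could not alter the log2 difference. The count is therefore no measure of stability. *Lefty2* between the file sets passed under each alternative fitted, whereas *Nodal* and *Tdgf1* did not pass without the filter (adjusted p = 0.0910 and 0.0839). With the file set as a block, *Lefty2*, *Nodal*, *Tdgf1* and *Gdf3* turned to -0.20, -0.22, -0.084 and -0.090 for Ring1B-KD against control, and with *Acvr1b* to -0.41, -0.45, -0.12, -0.33 and -0.27 for Dzip3-KD against control. In these block fits the difference between the sets came only from Ring1B-KD 2 against Ring1B-KD 1. The values for Ring1B-KD against control are therefore those without Ring1B-KD 2, and those for Dzip3-KD rest on that 1 pair of libraries. *Tdgf1* for the Dzip3KD word was 0.021 after quantile normalization. Between the sets 638 genes were called, against 285 without the filter and 1076 with voom on recovered reads, where fewer genes were tested. For the Ring1BKD word 48 genes were called, against 21 with a pseudocount of 0.1, 0 without the filter, 0 without the set block and 79 with voom, and for the Dzip3KD word voom called 4 in place of 0. For Dzip3-KD against control 24 genes were called with only the 4 libraries compared. The cause of these shifts was not tested.

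Same-numbered libraries did not deviate together (correlations of -0.04, -0.24 and 0.04), and with the replicate number as a block 1 gene was called for Dzip3-KD against control and none in the other comparisons by label.

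Leaving out 1 library gave 0 to 27 genes called for Dzip3-KD against control (25 without Ring1B-KD 1 and 27 without Ring1B-KD 2), 67 to 359 between the sets (209 without control 1, 330 without control 2, 334 without Ring1B-KD 1, 103 without Ring1B-KD 2, 359 without Dzip3-KD 1 and 67 without Dzip3-KD 2), 3 to 61 for the Ring1BKD word (3 without Dzip3-KD 1) and 0 to 4 for the Dzip3KD word (4 without Ring1B-KD 2 and 1 without Dzip3-KD 2). Member differences that changed sign ranged from -0.032 to 0.19 for *Acvr1b* in Dzip3-KD against control, and in Ring1B-KD against control from -0.23 to 0.12 for *Acvr1b*, -0.17 to 0.57 for *Acvr2b*, -0.090 to 0.41 for *Gdf3*, -0.20 to 2.15 for *Lefty2*, -0.22 to 0.70 for *Nodal* and -0.084 to 0.58 for *Tdgf1*. For the Ring1BKD word they ranged from -0.33 to 0.50 for *Acvr2b*, -0.43 to 0.17 for *Lefty1* and -0.14 to 0.21 for *Smad3*. For the Dzip3KD word they ranged from -0.32 to 0.043 for *Acvr1b* and -0.19 to 0.11 for *Tdgf1*, and between the sets from -0.084 to 0.47 for *Acvr2b*. Depth limits *Lefty1* and *Acvr2b*, with 1 to 40 and 3 to 14 reads.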
